A study of Mus musculus with 2 samples.

Results

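The nuclei labelled Pvalb were mapped by the authors to the parvalbumin subclass of cortical interneurons. They were captured through a reporter of Atf3 activity after mild traumatic brain injury (mTBI). They were chosen by the subclass that the deposited table gives them within the authors' subset of neurons. This rule found 269 nuclei (119 male, 150 female), of 8171 nuclei with a label and of 2580 in the neuron subset. Parvalbumin interneurons make the inhibitory transmitter GABA, arise in the medial ganglionic eminence, and fire fast trains of action potentials onto the cell bodies of pyramidal neurons (basket cells) or onto their axon initial segments (chandelier cells). Many of them carry a perineuronal net, a lattice of chondroitin sulphate proteoglycans such as aggrecan. Atf3 encodes a bZIP transcription factor that is low in the healthy brain and is switched on in neurons whose axons are injured.

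The mice were heterozygous for Atf3-CreER and for Sun1-sfGFP, a nuclear envelope protein with a green fluorescent tag, so that tamoxifen marked the nuclei of cells in which Atf3 was active. All animals were older than 7 weeks, had mTBI, received tamoxifen at 4 and 5 days post injury (dpi), and gave GFP+ nuclei from the ipsilateral cortex at 7 dpi. Males and females gave 1 library each, made from 4 pooled animals, without a replicate of either sex. Since Atf3 drove the Cre, the groups held captured nuclei alone, and uninjured neurons were not analysed here. A label field of the female library reads male, whereas its name and the deposited table read female. In nuclei labelled Pvalb, Xist stood at 1.58 (male) and 1406 (female) CPM (parts in 1e6 of all UMIs of a sum).

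Depth differed between the libraries. The male library held 4044 called barcodes with 11007366 unique molecular identifiers (UMIs, 1 per captured transcript), and the female library 4214 with 23202343. The 2 libraries shared 1 called barcode, and 0 barcodes of Pvalb nuclei. For nuclei labelled Pvalb the medians were 4576 (male) and 11808 (female) UMIs, with 1912 and 3285.5 genes. Single Pvalb nuclei ranged from 716 to 18984 UMIs in males and from 756 to 36801 in females. Sex and depth therefore cannot be told apart. The comparison groups were 174 and 143 Sst nuclei (medians 3797 and 9031 UMIs), 53 and 46 nuclei labelled Vip, Lamp5 or Sncg that were pooled (3302 and 6724 UMIs), and 6 excitatory subclasses. Microglia, used to gauge RNA from outside the nucleus, had medians of 1298.5 and 3012.5 UMIs.

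The label was set beside 2 other columns of the table. Cluster 8 held all 119 male and 145 of the 150 female Pvalb nuclei, and 87.1% of the 303 nuclei of that cluster were labelled Pvalb. The earlier mapping of all nuclei had called 265 of the 269 Pvalb, 3 Micro-PVM (microglia and macrophages) and 1 Sst. The transcript that names the subclass was nearly undetected, with 1 Pvalb UMI in each library (1.58 and 0.516 CPM). This was not particular to these nuclei. Pvalb was counted in 2 of 269 Pvalb and 3 of 317 Sst nuclei, and Sst itself in 3 of 317 Sst nuclei. The paper reports that all captured interneuron subclasses lacked their subclass markers. After each nucleus was thinned to 2300 UMIs, 0 of 106 male and 0 of 147 female nuclei had it, which allows up to 3.42% and 2.48% of nuclei with a detected Pvalb UMI at that depth (exact binomial 95% limits) and does not bound expression. The nuclei are called by their label. The authors derived the labels from these counts, and tests between subclasses compare groups that the tested genes helped to define. No doublet caller was run.

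UMIs were summed per library and subclass, since single nuclei of a library cannot serve as replicates. The 634194 and 1937241 UMIs of the Pvalb sums were fitted with those of the other groups, 18 sums and 8676 genes in all. A gene is said to pass when its adjusted p was under 0.05 in the quasi-likelihood F test of edgeR, adjusted by Benjamini-Hochberg over all genes tested, and every adjusted p is from that test. Levels are CPM of the male and then the female sum. Against Sst, 680 genes passed, 343 higher (3.95% of all genes tested) and 337 lower (3.88%) in Pvalb nuclei, and all 680 had the same direction in each library alone. Against the pool of Vip, Lamp5 and Sncg, 1038 passed, 488 higher (5.62%) and 550 lower (6.34%), 1033 of them in the same direction in each library. Against the mean of the excitatory subclasses, 2085 passed, 1159 higher (13.4%) and 926 lower (10.7%), 2072 in the same direction. These genes were selected by a fit to the same 2 libraries, which favours agreement, so the shared direction is not independent support. The median log2 fold change of all genes was −0.02, 0.03 and 0.02 in the 3 comparisons. Counts of calls in each gene list below stand beside these shares of all genes. Whether any list differed from them was not tested. The comparisons share the Pvalb sums, so they are not independent of each other. Of the genes higher against Sst, 150 (43.7%) were also higher against the pool, which is 30.7% of the genes higher there.

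Changes of processing ended many calls. Of the 228 calls of genes named here, 22 were lost with DESeq2's Wald test and 36 of the 191 still tested were lost with nuclei thinned to 2300 UMIs. Subtracting an ambient profile, scaled to the microglial UMIs of each sum, took 16.8% and 25.2% of the UMIs of the Pvalb sums, and 99 of 227 calls were kept. The raw barcodes behind that profile come from matrices whose headers name another Cell Ranger version (4) than those of the called barcodes. Leaving out every nucleus with at least 2 UMIs of 14 microglia genes (the microglial filter) kept 50 male and 6 female Pvalb nuclei. The filter left 70 male and 14 female Sst nuclei, and 30 male and 1 female nuclei of the pool, and 64 of 171 calls were kept. Against Sst, 28 of 99 named calls were kept in every alternative that tested them, and against the pool 28 of 116. The genes described as kept throughout are among these. The biological coefficient of variation was 0.172 in the fit. The fit has no term for the library, so this value includes differences between the male and female libraries. With such a term (a library block) it was 0.103. It was 0.432 with ambient subtraction and 0.347 with the microglial filter, so a call could be lost in these 2 settings with a fold as large as before.

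Genes of GABA synthesis are described first. The labels were mapped from these same counts, so the tests against excitatory subclasses are not an independent check of identity. Gad1 (ENSMUSG00000070880, chr2:70553072-70602014, plus strand, GRCm38) encodes the enzyme behind most GABA of the cell body, and stood at 196 and 171 CPM in Pvalb nuclei (183 ± 17.1, mean ± SD), 250 and 202 CPM in Sst and 166 and 247 CPM in the pool. Excitatory subclasses had 13.7 and 5.40 CPM, so both Pvalb sums lay far above both excitatory means (log2 fold change 5.94, SE 0.33, adjusted p = 2.7e-11). Each fold against excitatory subclasses comes from the fit, with a level for each of the 6, and is not the ratio of the CPM means. Gad2 (ENSMUSG00000026787, chr2:22622205-22693874, plus strand) encodes the enzyme of GABA terminals, and stood at 243 and 219 CPM, against 319 and 289 CPM in Sst and 597 and 628 CPM in the pool. It was higher than in excitatory subclasses (log2 fold change 5.54, SE 0.20, adjusted p = 7.9e-15). Both genes differed from Sst by less than the test could call (−0.32 with adjusted p = 0.69 for Gad1, −0.42 with adjusted p = 0.26 for Gad2), with both Pvalb sums below both Sst sums. Gad2 was lower than in the pool (log2 fold change −1.34, SE 0.20, adjusted p = 5.1e-05), a call lost with the microglial filter and with ambient subtraction. Gad1 against the pool had a log2 fold change of −0.15 (adjusted p = 0.86).

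Among male Pvalb nuclei 92 of 119 carried a Gad1 or Gad2 UMI (77.3%, exact binomial 95% interval 68.7–84.5%), and among female ones 132 of 150 (88.0%, 81.7–92.7%). The 27 and 18 nuclei with neither were shallower, with medians of 3440 and 6289.5 UMIs against 4972 and 12363.5 in the others. At an equal 2300 UMIs per nucleus, Gad1 was found in 31.1% and 20.4% of Pvalb nuclei and Gad2 in 38.7% and 36.1%. Microglia, which should lack both, had Gad1 in 1.55% and 1.30% and Gad2 in 2.06% and 1.60% at that depth. Of the 1690 male microglia, only 194 were deep enough to enter these shares. Both genes belong to a list of 11 for GABA handling and its regulators. Of the 7 tested, 0 passed against Sst in either direction (median −0.42, 3 with an unadjusted p under 0.05 in edgeR, and 0 of 8 by the DESeq2 Wald test), and 0 were higher and 4 lower against the pool (median −1.34). Among the lower were Gad2, Dlx1, a homeobox gene of interneuron precursors (1.58 and 4.65 CPM against 23.7 and 37.3), and Dlx6os1, a long noncoding RNA (36.3 and 37.7 against 279 and 322), with Dlx1 lost under ambient subtraction and Dlx6os1 under the microglial filter.

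Regulators of origin had calls in both comparisons with interneurons. Of 10 regulators of interneurons from the medial ganglionic eminence, 9 were tested, with 3 higher and 2 lower against the pool (median 0.58), and 1 higher and 2 lower against Sst (median −0.60). Sox6, which acts in postmitotic interneurons of that origin, stood at 389 and 323 CPM, against 595 and 469 CPM in Sst and 0 and 10.6 CPM in the pool (log2 fold change 5.75, SE 0.47, adjusted p = 2.2e-08), and was kept throughout. Lhx6, a LIM homeobox gene that specifies these cells, stood at 33.1 and 27.9 CPM, near the 25.1 and 25.7 CPM of Sst and above the 0 and 2.66 CPM of the pool, where the Wald test and ambient subtraction ended the call. Its ratio to the excitatory subclasses was 178 (95% interval 47.5 to 1493), from 1 to 3 excitatory UMIs. Satb1, a chromatin organiser, was higher than in the pool (2.04, lost with the microglial filter) and lower than in Sst (−0.71, adjusted p = 0.048), and the latter call was kept in the block fit alone. Maf, which directs cells of this origin towards the Sst fate, was lower in Pvalb than in Sst (48.9 and 42.3 against 122 and 91.8 CPM, −1.24, lost with thinning and ambient subtraction), while Mef2c, needed for Pvalb interneurons, was higher (232 and 172 against 121 and 96.0 CPM, 0.87, lost with thinning, the microglial filter and ambient subtraction). Of 10 genes of interneurons from the caudal ganglionic eminence, 8 were tested and 7 were lower against the pool (median −5.76, or −5.20 with genes at 0 taken at their bound), and 1 was lower against Sst (median −0.50). Adarb2, an RNA-binding protein gene that marks that origin, stood at 11.0 and 8.78 CPM in Pvalb nuclei and at 6049 and 7557 CPM in the pool (−9.38, kept throughout). Prox1, its homeobox regulator, stood at 1.58 and 0.516 CPM against 152 and 218 CPM. The gene lower than in Sst was Npas3, a bHLH-PAS factor, at 623 and 546 against 1543 and 1433 CPM (−1.37, lost with the microglial filter and ambient subtraction).

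**Figure D1:**
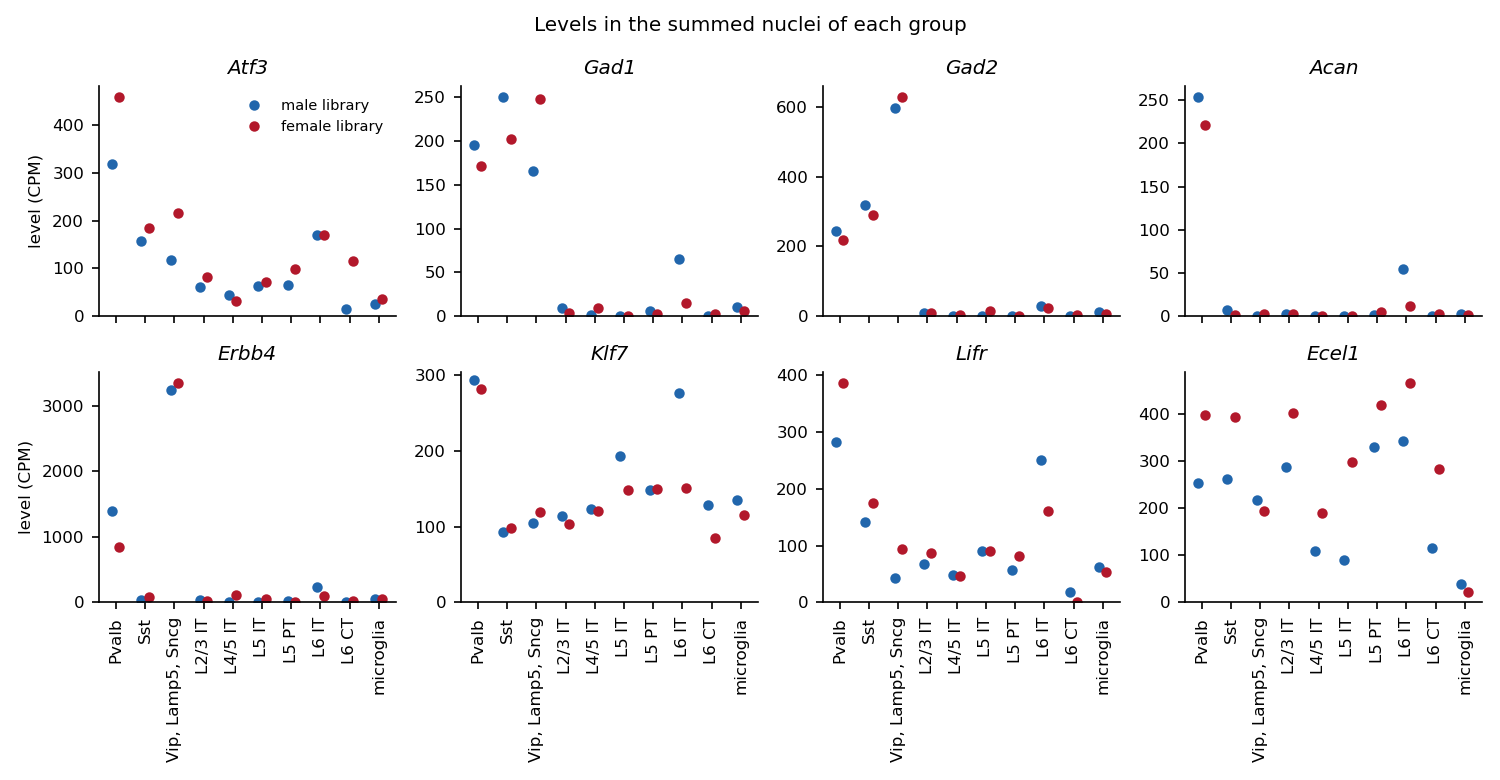
Level (CPM, linear axis) of 8 genes in the sums of nuclei labelled Pvalb, Sst, the pool of Vip, Lamp5 and Sncg, 6 excitatory subclasses and microglia, with 1 dot per library. In each library Acan, Atf3, Klf7 and Lifr are highest in Pvalb, while Gad2 and Erbb4 are highest in the pool.

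Among genes known to mark parvalbumin interneurons, most of those tested were higher, although several of the best known were near 0. Of 20 such genes, 13 were tested, with 8 higher and 1 lower against Sst (median 1.75), and 7 higher and 3 lower against the pool (median 2.94). Their summed level was 3568 and 2592 CPM in Pvalb nuclei 750 and 815 CPM in Sst, and 3898 and 4159 CPM in the pool, above Pvalb in both libraries. Erbb4, the neuregulin receptor through which pyramidal neurons shape these cells, made the largest contribution to that sum. It stood at 1402 and 846 CPM, against 44.0 and 89.7 CPM in Sst (log2 fold change 3.97, SE 0.50, adjusted p = 8.7e-06) and 3245 and 3348 CPM in the pool (−1.50, adjusted p = 0.025). Thus both Pvalb sums lay between the other groups, and the call against Sst was lost with ambient subtraction and that against the pool also with the Wald test and the microglial filter. The log2 fold change against Sst was 3.78 to 6.19 over the alternatives, the largest being that with ambient subtraction (adjusted p = 0.068), and against the pool −1.80 to −1.003. Slit2, a secreted guidance cue, stood at 317 and 276 CPM, against 45.2 and 39.6 CPM in Sst (log2 fold change 2.78, SE 0.28, adjusted p = 5.8e-07) and 18.9 and 53.2 CPM in the pool (log2 fold change 2.94, SE 0.35, adjusted p = 3.7e-06), and was kept throughout in both comparisons. Cemip, whose product breaks down hyaluronan, stood at 366 and 342 CPM, the highest of the 9 groups in each library, against 65.3 and 108 CPM in Sst (log2 fold change 1.96, SE 0.25, adjusted p = 8.7e-06). It was kept throughout, also against the pool (3.50). Btbd11 (284 and 204 against 71.6 and 45.2 CPM), Il1rapl2 (412 and 151 against 61.6 and 102), Tmem132c (85.1 and 45.4 against 15.1 and 20.2) and Plcxd3 (197 and 241 against 55.3 and 49.4) were the other genes higher than in Sst beside Syt2. Ambient subtraction ended the calls of Btbd11, Il1rapl2 and Tmem132c, the microglial filter those of Btbd11 and Plcxd3, and the Wald test also that of Tmem132c. Cpne5, with 0 UMIs in Pvalb nuclei and 5.02 and 10.4 CPM in Sst, was the gene of the list that was lower, and was lost with ambient subtraction. Against the pool, Ank1 (1.19) and Eya4 (3.89) were higher too, and Osbpl3 (−1.02) and Unc5b (−5.57) were lower, of which Eya4 alone was kept throughout. Tac1, which encodes substance P, had 4.73 and 0 CPM and Cox6a2, a cytochrome oxidase subunit of these cells, 1.58 and 0 CPM.

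Syt2, the calcium sensor for release at parvalbumin terminals, was at 14.2 and 26.3 CPM in Pvalb nuclei and at 0 and 0.695 CPM in Sst, which had 1 UMI in all. Both Pvalb sums lay above both Sst sums, with a ratio of 52.1 (95% interval 9.005 to 2093), and the call was lost with ambient subtraction. Its promoter is shown because Syt2 is the terminal marker of the subclass that was counted, and it was chosen after its values were seen. The window runs from 250 bases before to 50 after the RefSeq start (RefSeq, GRCm38.p6, chr1:134646362-134646661, plus strand), which is not the start that GENCODE gives. RefSeq has 2 windows for Syt2, and the window with more motif matches is shown. Capitals mark TCAAGGTCA, the element of estrogen-related receptors, 167 bases before the start and on the opposite strand, and TGACG, the core of the cyclic AMP response element, which overlaps it 161 bases before. On both strands TCAAGGTCA occurred in 0.423% and TGACG in 20.8% of 32851 promoter windows, and in 0.190% and 31.1% of the 8951 windows of genes tested, and a match is a description only.
Syt2: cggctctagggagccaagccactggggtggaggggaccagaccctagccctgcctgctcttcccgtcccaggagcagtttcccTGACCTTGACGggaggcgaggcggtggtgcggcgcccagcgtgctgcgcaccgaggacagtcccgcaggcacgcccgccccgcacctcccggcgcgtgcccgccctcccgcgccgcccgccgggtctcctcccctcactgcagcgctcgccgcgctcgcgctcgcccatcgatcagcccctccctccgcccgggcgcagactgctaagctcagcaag

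Markers of the other interneurons were low. Of 18 Sst markers, 9 were tested, with 0 higher and 5 lower against Sst (median −3.68) and 0 higher and 3 lower against the pool (median −0.64). They summed to 178 and 150 CPM in Pvalb nuclei against 2310 and 2113 CPM in Sst. The Sst transcript itself was nearly undetected in both, in 1 of 269 Pvalb and 3 of 317 Sst nuclei. Reln, a secreted matrix glycoprotein, was at 29.96 and 18.6 CPM against 977 and 947 CPM in Sst (log2 fold change −5.43, SE 0.35, adjusted p = 5.9e-10). Grin3a, an NMDA receptor subunit, was at 36.3 and 32.0 against 469 and 392 CPM (−3.68). Reln, Grin3a and Elfn1 (0 and 3.61 against 69.1 and 65.4 CPM) were kept throughout against Sst, and Pdyn was lost with ambient subtraction. Of 14 markers of the pool, 5 were tested, with 0 higher and 4 lower against the pool (median −4.33), and 0 higher and 2 lower against Sst (median −1.80). Cnr1, the cannabinoid receptor, was the most abundant in Pvalb nuclei, at 4.73 and 10.8 CPM against 213 and 186 CPM in the pool (−4.33). Vip was at 1.58 and 0 against 90.0 and 39.9 CPM (lost with the Wald test and ambient subtraction), and Lamp5 had 0 UMIs in Pvalb nuclei.

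**Figure D2:**
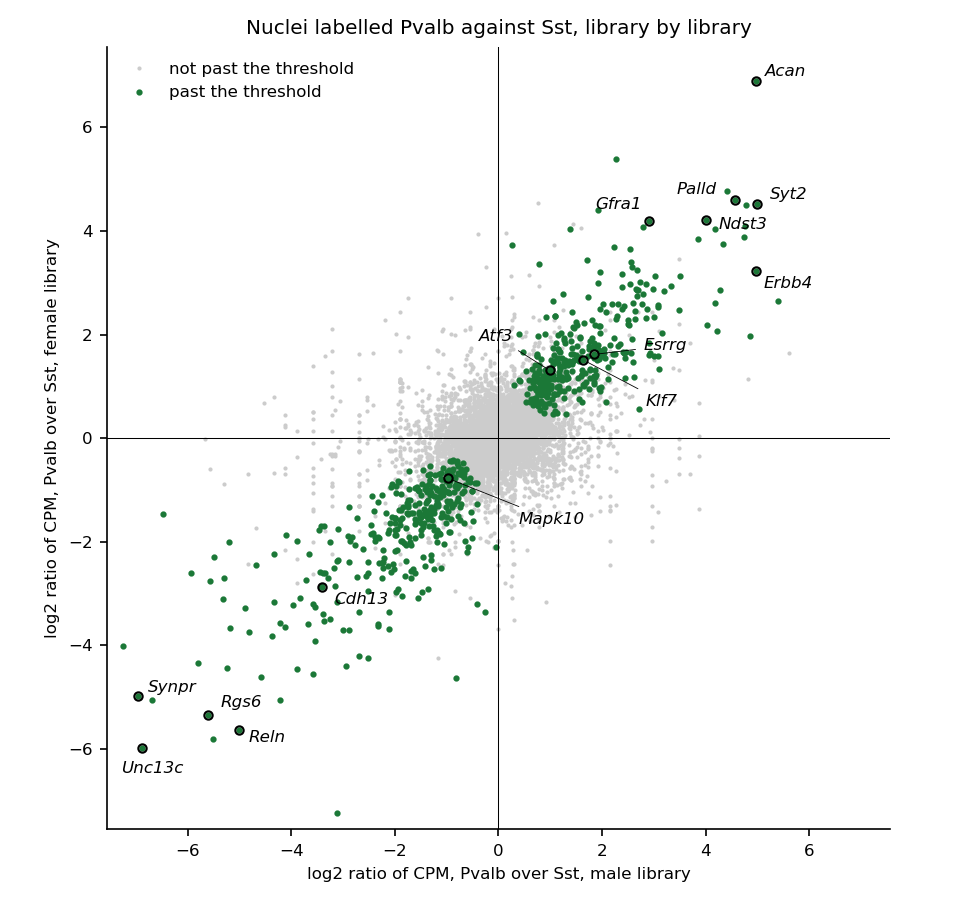
Log2 ratio of CPM, Pvalb over Sst, of each gene tested, in the male library (x axis) and in the female library (y axis), with genes that passed in green and 15 of them named. All 680 genes that passed have the same sign on both axes, which their selection by a fit to both libraries favours.

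Acan was the member of the perineuronal net list that stood out. It encodes aggrecan, the core proteoglycan of the net (ENSMUSG00000030607, chr7:79053483-79115099, plus strand). Acan was at 254 and 222 CPM in Pvalb nuclei (238 ± 22.6), 7.54 and 1.39 CPM in Sst and 0 and 2.66 CPM in the pool. Pvalb sums were the highest of the 9 groups in each library and did not overlap with the others. Acan was higher than in Sst (log2 fold change 5.94, SE 0.48, adjusted p = 5.1e-08) and than in excitatory subclasses (log2 fold change 7.43, SE 0.36, adjusted p = 6.8e-12). The pool had 1 UMI of it, a ratio of 135 (95% interval 24.1 to 5337). Acan was kept throughout in all 3 comparisons. At 2300 UMIs per nucleus it was found in 39.6% (30.3–49.6%) and 25.2% (18.4–33.0%) of Pvalb nuclei, 0.775% and 0% of Sst nuclei and 1.55% and 0.296% of microglia. Of the 15 genes of the net list, 8 were tested, with 1 higher and 1 lower against Sst (median −0.12), and 2 higher and 2 lower against the pool (median 0.03, or −0.01 with DESeq2 size factors). Tnr, the crosslinking protein tenascin-R, was at 579 and 519 CPM against 204 and 274 CPM in the pool (1.24, lost with the microglial filter). Ptprz1, a receptor for these proteoglycans, was lower than in Sst (45.7 and 25.3 against 94.2 and 73.0 CPM, −1.35, lost with the microglial filter and ambient subtraction) and than in the pool (−2.84, kept throughout), and Vcan was lower than in the pool (−3.11, lost with ambient subtraction). Members of the list thus lay on both sides of Sst and of the pool.

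**Figure D3:**
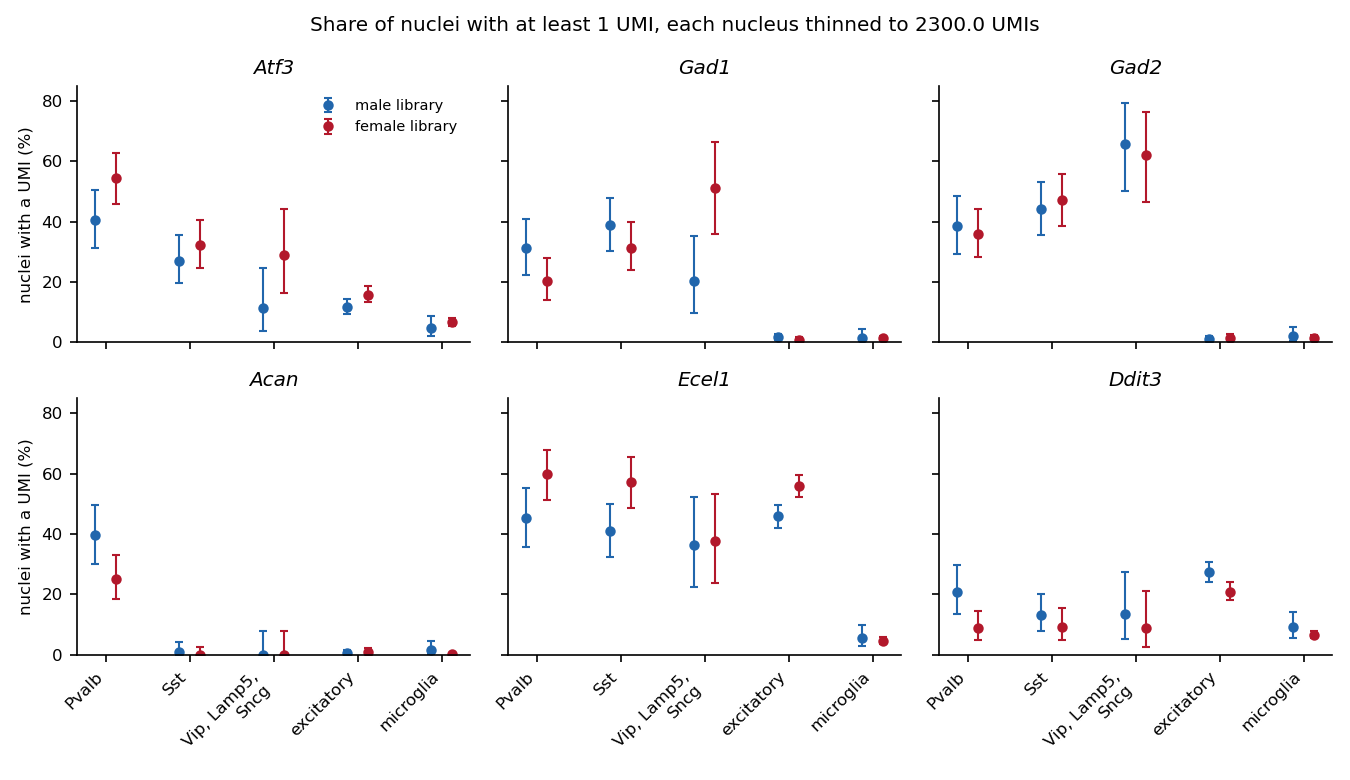
Share (percent) of nuclei in which a gene was counted once each had been thinned to 2300 UMIs, for 5 groups in each library, with exact binomial 95% intervals as bars. Acan stands apart in Pvalb nuclei (39.6% and 25.2%), while Ecel1 is near 50% in Pvalb, Sst and excitatory nuclei and lower in the pool (36.4% and 37.8%).

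Channels tied to fast spiking had calls in both directions. Of 25 genes, 24 were tested, with 2 higher and 4 lower against Sst (median 0.35), and 5 higher and 3 lower against the pool (median 0.13). Kcnc2, a Kv3 channel that allows fast repolarisation, was at 1285 and 1151 CPM in Pvalb and 1299 and 1097 CPM in Sst (0.00, adjusted p = 1), and at 554 and 511 CPM in the pool (log2 fold change 1.27, SE 0.21, adjusted p = 0.00024, lost with the microglial filter and ambient subtraction). Kcnh7, an ERG-type potassium channel, was at 788 and 636 CPM against 121 and 87.6 CPM in Sst (log2 fold change 2.76, SE 0.29, adjusted p = 8.4e-07), and was kept throughout. The 4 lower than in Sst were Kcnip1, an auxiliary subunit of A-type channels (74.1 and 44.9 against 209 and 166 CPM, −1.75), its partner Kcnd2 (−1.10), the M-current gene Kcnq3 (−0.76) and Kcna6 (−1.58). All 4 were lost with the microglial filter, where Kcna6 had the opposite sign, and with ambient subtraction, and Kcnip1 and Kcnq3 also with thinning. Against the pool, Cacna2d2 (85.1 and 92.9 against 18.9 and 10.6 CPM, 2.77) and Kcnip1 (−3.72) were kept throughout. Kcna1 (1.39) and Kcnq3 (1.21) were higher, and Kcnq5 (−2.34) and Scn9a (−2.33) lower, each lost in at least 1 alternative.

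Atf3 (ENSMUSG00000026628, chr1:191170296-191218039, minus strand) was at 319 and 459.9 CPM in Pvalb nuclei (389 ± 100), the highest of the 9 groups in each library. Sst had 158 and 186 CPM (172 ± 19.4), the pool 118 and 216 CPM (167 ± 68.7), excitatory subclasses 70.0 and 95.0 CPM on average and microglia 26.5 and 35.9 CPM. Both Pvalb sums lay above both sums of each of these groups. Atf3 was higher than in excitatory subclasses (log2 fold change 2.46, SE 0.25, adjusted p = 9.5e-08, kept in 9 of 9 alternatives), than in Sst (log2 fold change 1.17, SE 0.34, adjusted p = 0.034) and than in the pool (log2 fold change 1.25, SE 0.38, adjusted p = 0.033). Against Sst the log2 fold change ran from 0.55 to 1.20 over the alternatives and the adjusted p from 2.1e-05 to 1, with the call lost under the Wald test, thinning, the microglial filter and ambient subtraction. Against the pool it ran from 1.20 to 1.83, and the call was lost under the same alternatives except thinning. Atf3 thus kept its call in every alternative against excitatory subclasses. Against the pool its log2 fold change stayed near or above that of the fit while the adjusted p reached 0.43, and against Sst the smallest value, 0.55, came with the microglial filter.

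Single Pvalb nuclei varied widely in Atf3. A UMI of Atf3 was found in 71 of 119 (59.7%, 50.3–68.6%) male and 129 of 150 (86.0%, 79.4–91.1%) female nuclei. In the male library 19 nuclei had 1 UMI, 20 had 2 and 32 had at least 3, with 9 as the highest, and in the female library 18, 16 and 95, with 33 as the highest. Nuclei with Atf3 were deeper, with medians of 4836 and 12500 UMIs against 3438 and 7651 without. At 2300 UMIs per nucleus the shares were 40.6% (31.1–50.5%) and 54.4% (46.0–62.6%) in Pvalb, 27.1% and 32.1% in Sst, 11.4% and 28.9% in the pool, 11.8% and 15.8% in excitatory and 4.64% and 6.63% in microglial nuclei. Pvalb thus had the highest share of these groups in each library. Both Atf3 and a Gad transcript were counted in 57 male and 117 female nuclei. The other bZIP genes gave few values to test. Of 16 genes of AP-1 and its relatives, 6 were tested, and Atf3 was the 1 that was higher against Sst (median −0.06, 0 lower) and against the pool (median 0.20, 0 lower), while the DESeq2 Wald test called 0 of 8 and 0 of 11. Jun, which can dimerise with Atf3, was at 59.9 and 77.4 CPM against 59.0 and 52.2 CPM in Sst (0.35, adjusted p = 0.78), and Fos had 0 UMIs in Pvalb nuclei.

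The promoter of Atf3 and that of Sprr1a, a cornified envelope gene induced in injured neurons, are shown as sequences of the injury response. Both genes and the motifs were chosen after values were seen. Each window runs from 250 bases before to 50 after a RefSeq start (RefSeq, GRCm38.p6), for Atf3 chr1:191183284-191183583 on the minus strand, inside the annotated gene, and for Sprr1a chr3:92485832-92486131 on the minus strand. Capitals mark matches on either strand. In Atf3 they are TGATGNAA, the C/EBP-ATF element, 110 bases before the start, and TGACG, 7 bases before it, both on the opposite strand. In Sprr1a they are 2 matches of TGANTCA, the AP-1 element, 146 and 116 bases before the start. Of all windows, 3.97% held TGATGNAA, 20.8% TGACG and 7.81% TGANTCA, and of those of genes tested 2.27%, 31.1% and 4.99%. Whether a factor was bound was not tested.
Atf3: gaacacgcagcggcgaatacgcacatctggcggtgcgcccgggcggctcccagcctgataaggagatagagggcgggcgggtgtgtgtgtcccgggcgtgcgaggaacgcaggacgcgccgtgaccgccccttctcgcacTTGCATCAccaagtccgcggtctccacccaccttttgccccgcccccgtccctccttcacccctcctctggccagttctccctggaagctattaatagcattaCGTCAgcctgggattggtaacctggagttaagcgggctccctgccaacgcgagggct
Sprr1a: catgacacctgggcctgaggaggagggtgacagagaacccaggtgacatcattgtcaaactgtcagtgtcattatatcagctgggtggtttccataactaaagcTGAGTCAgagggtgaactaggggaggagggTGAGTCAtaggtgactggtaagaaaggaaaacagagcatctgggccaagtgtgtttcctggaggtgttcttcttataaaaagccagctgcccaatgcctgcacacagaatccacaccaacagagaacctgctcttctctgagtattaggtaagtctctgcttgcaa

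Most tested genes of axon regeneration did not pass, and those that did were more often higher than lower, a difference that was not tested. Of 30, 21 were tested, with 4 higher and 1 lower against Sst (median 0.22), and 6 higher and 1 lower against the pool (median 0.75). Klf7, a transcription factor that promotes axon growth, was at 293 and 282 CPM (288 ± 8.09), against 93.0 and 98.8 CPM in Sst (log2 fold change 1.55, SE 0.19, adjusted p = 7.3e-06) and 104 and 119.7 CPM in the pool (log2 fold change 1.41, SE 0.22, adjusted p = 0.00011). Pvalb was the highest of the 9 groups in each library. The call against the pool was kept throughout, and that against Sst was lost with the microglial filter. At 2300 UMIs per nucleus Klf7 was found in 47.2% and 37.4% of Pvalb and 19.4% and 16.4% of Sst nuclei, and in 24.2% and 20.3% of microglia and 25.3% and 22.0% of excitatory nuclei. Lifr, the receptor subunit for leukaemia inhibitory factor and related cytokines, was at 282 and 385 CPM, again the highest in each library, against 142 and 174 CPM in Sst (log2 fold change 1.07, SE 0.28, adjusted p = 0.019) and 42.6 and 93.1 CPM in the pool (log2 fold change 2.28, SE 0.37, adjusted p = 0.00014). It was kept throughout against the pool and lost against Sst with the Wald test, the microglial filter and ambient subtraction. Stmn2, a tubulin-binding growth cone protein, was at 662 and 618 CPM, the highest in each library, against 372 and 314 CPM (0.88, lost with the microglial filter and ambient subtraction). Smad1, a BMP signal transducer, was at 112 and 103 against 65.3 and 54.2 CPM (0.84, lost with ambient subtraction). Cacna2d1, which encodes an auxiliary calcium channel subunit, was lower than in Sst (28.4 and 21.7 against 51.5 and 45.2 CPM, −1.01, lost with thinning, the filter and ambient subtraction) and than in the pool (474 and 436 CPM, −4.14, kept throughout).

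Against the pool alone, Sprr1a was higher, at 26.8 and 35.6 against 9.47 and 5.32 CPM (2.31), although Sst had 31.4 and 28.5 CPM and the call was lost with the Wald test, thinning, the microglial filter and ambient subtraction. Sox11, a regulator of growth programmes, was at 296 and 256 against 137 and 119.7 CPM (1.18), Cap2, an actin regulator, at 203 and 177 against 90.0 and 109 CPM (0.97), and Flrt3, an adhesion protein, at 61.5 and 45.9 against 23.7 and 13.3 CPM (1.66). Ambient subtraction ended these 3 calls, thinning those of Cap2 and Flrt3, and the microglial filter those of Sox11 and Cap2. Ecel1, a peptidase induced in injured neurons, was at 252 and 397 CPM in Pvalb and 261 and 393 CPM in Sst (−0.02, adjusted p = 1), and at 218 and 194 CPM in the pool (0.77, adjusted p = 0.3). At equal depth the shares with Ecel1 were 45.3% and 59.9% in Pvalb, 41.1% and 57.1% in Sst, 36.4% and 37.8% in the pool, 45.9% and 56.1% in excitatory and 5.67% and 4.62% in microglial nuclei. Ecel1 did not pass in any of the 3 comparisons. With a library block, which uses that each library supplied all groups, it passed against the pool (0.77, adjusted p = 0.018) and against excitatory subclasses (0.40, adjusted p = 0.037), and without a filter on low counts against the pool (0.89, adjusted p = 0.015). Over the alternatives the adjusted p ran from 0.015 to 0.98 against the pool, from 0.037 to 0.97 against excitatory subclasses and from 0.91 to 1 against Sst. Whether Atf3 and these genes went together within the subclass was also counted, at 2300 UMIs, in nuclei with and without an Atf3 UMI (43 and 63 male, 80 and 67 female). Ecel1 was found in 51.2% with and 41.3% without in the male and 65.0% with and 53.7% without in the female library, and Klf7 in 39.5% with and 52.4% without and 43.8% with and 29.9% without. Lifr was found in 53.5% with and 30.2% without in males and in 53.8% with and 56.7% without in females. The 95% intervals of each of these pairs overlapped, and the sign for Klf7 and Lifr differed between the libraries.

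**Figure D4:**
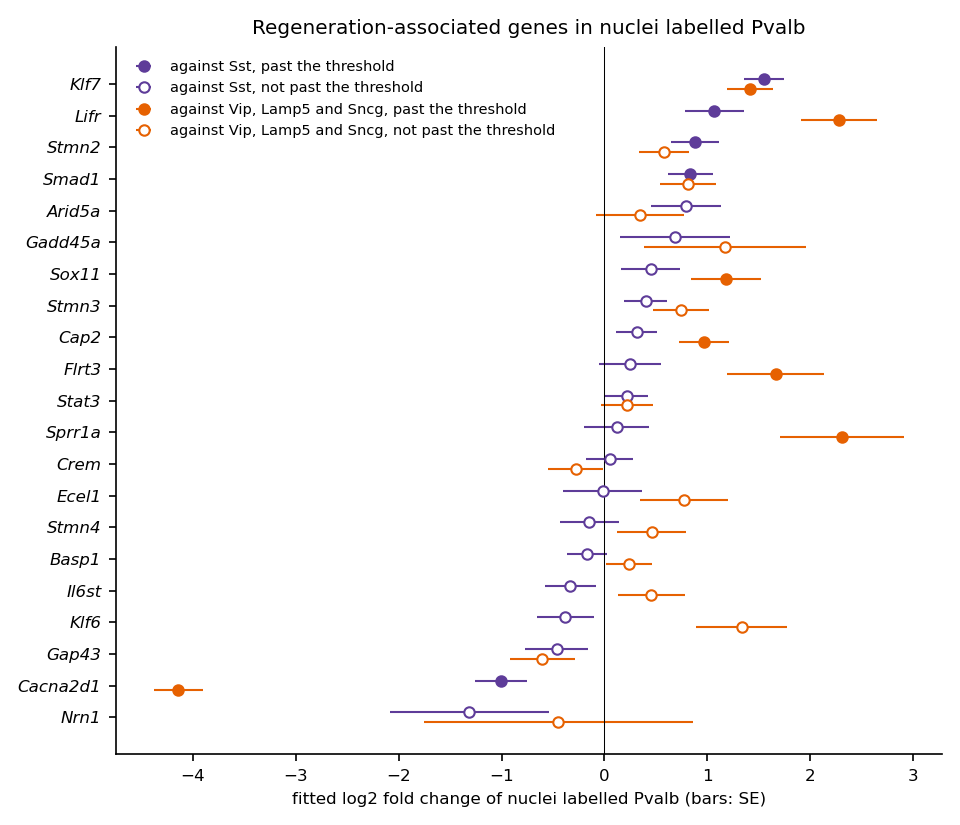
Log2 fold change (± SE) of the 21 tested genes of axon regeneration, Pvalb against Sst and against the pool of Vip, Lamp5 and Sncg, with filled symbols for genes that passed. Klf7 and Lifr are higher in both comparisons and Cacna2d1 is lower in both.

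Calls in lists of stress programmes stand beside 3.95% of all genes tested higher and 3.88% lower against Sst. Against the pool the shares of all genes were 5.62% and 6.34%. Of 26 genes of the integrated stress and unfolded protein responses, 17 were tested and 0 passed in either comparison in edgeR (medians 0.19 against Sst and 0.21 against the pool, 1 with an unadjusted p under 0.05 in each). The DESeq2 Wald test called 0 of 22 in each. Ddit3, the proapoptotic factor CHOP, with a gene entry that overlaps a like-named entry on its strand, was at 123 and 49.6 CPM in Pvalb, 61.6 and 42.4 CPM in Sst (0.60, adjusted p = 0.49) and 71.0 and 29.3 CPM in the pool. The male sum was higher than the female sum in each of these groups. Hspa5, a chaperone of the endoplasmic reticulum, had most UMIs of the list, at 118 and 136 CPM. Of 26 genes of p53 and apoptosis, 14 were tested, with 1 higher and 0 lower against Sst (median 0.05) and 0 of either against the pool (median 0.28, 2 with an unadjusted p under 0.05 in edgeR, and 0 of 23 by the DESeq2 Wald test). The gene was Apaf1, the apoptosome scaffold, at 128 and 157 against 79.1 and 74.4 CPM (log2 fold change 0.90, SE 0.21, adjusted p = 0.0059), and thinning, the microglial filter and ambient subtraction ended its call. Mdm2, which restrains p53, had most UMIs, at 309 and 186 CPM. Of 18 genes of the DLK, JNK and SARM1 axon damage pathway, 17 were tested, with 0 higher and 1 lower against Sst (median −0.03), and 1 higher and 0 lower against the pool (median 0.16). The lower gene was Mapk10, the neuronal JNK3, at 341 and 381 against 662 and 654 CPM (−0.88, lost with the microglial filter and ambient subtraction), and the higher was the JNK phosphatase Dusp10 (0.99, lost in 5 of 10 alternatives). Each of these lists thus had at most 1 member that passed in a comparison, of 14 to 17 tested. Whether that differed from the share of all genes was not tested.

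Some receptors for growth factors differed between Pvalb and Sst. Of 20 genes of neurotrophic signalling, 12 were tested, with 3 higher and 1 lower against Sst (median 0.26), and 2 higher and 3 lower against the pool (median −0.32). Ntrk3, the receptor of neurotrophin 3, was at 304 and 350 CPM against 44.0 and 57.7 CPM in Sst (log2 fold change 2.64, SE 0.33, adjusted p = 7.0e-06). Gfra1, the GDNF co-receptor, was at 31.5 and 58.8 against 3.77 and 2.78 CPM (log2 fold change 3.87, SE 0.63, adjusted p = 0.00021). Both were kept throughout. Against the pool, with Ntrk3 at 398 and 516 CPM, both Pvalb sums were lower without passing (−0.41, adjusted p = 0.46), and Gfra1, at 28.4 and 69.2 CPM there, did not pass (−0.05, adjusted p = 0.98). Bdnf was lower than in Sst, at 25.2 and 10.8 against 37.7 and 48.0 CPM (−1.50, lost with the Wald test and ambient subtraction). Ret, which signals for Gfra1, was higher than in the pool (1.55, lost with thinning and ambient subtraction), as was Nrg1 (1.11, lost with the microglial filter), and Ntrk2 (−0.97, lost with the filter) and the sorting receptors Sorcs1 (−5.49) and Sorcs3 (−6.91) were lower, the last 2 kept throughout. Of 20 neuropeptide and granin genes, 10 were tested, with 2 higher and 1 lower against Sst (median 0.06, or −0.13 at bound), and 0 higher and 2 lower against the pool (median −0.26, or −0.32 at bound). Penk, which encodes enkephalin, was at 34.7 and 36.7 CPM, above the 8.79 and 12.5 CPM of Sst (1.67) and below the 61.6 and 128 CPM of the pool (−1.39), both lost with ambient subtraction and the latter also with thinning. Chgb, a granin, was at 39.4 and 52.7 against 22.6 and 20.9 CPM (1.13, lost with the Wald test, thinning, ambient subtraction and the leading cluster alone). Pdyn, prodynorphin, was at 7.88 and 0 against 71.6 and 70.2 CPM.

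Transmitter receptors differed in subunit. Of 26 GABA and glutamate receptor genes, 25 were tested, with 4 higher and 6 lower against Sst (median −0.37), and 1 higher and 8 lower against the pool (median −0.43). Gabrb2, which encodes a GABA-A subunit, was at 388 and 305 against 67.8 and 62.6 CPM in Sst (log2 fold change 2.37, SE 0.22, adjusted p = 1.2e-07), and was kept throughout. Gabrg3 was at 2173 and 2056 against 759 and 679 CPM (1.54, lost with the microglial filter) and Gabra4 at 74.1 and 37.2 against 18.8 and 11.1 CPM (1.82, lost with thinning and ambient subtraction). Glutamate receptor subunits were among the genes lower than in Sst, with Grin3a kept throughout. Grin2a, an NMDA subunit, was at 405 and 345 against 1028 and 1016 CPM (−1.47, lost with the microglial filter), Grik1 at 109 and 141 against 362 and 324 CPM (−1.43) and Gria2, the subunit that limits calcium entry through AMPA receptors, at 208 and 194 against 394 and 346 CPM (−0.90). The microglial filter and ambient subtraction ended the calls of Grik1 and Gria2, and thinning also that of Gria2. Gabra3 (−1.79, lost with the Wald test and ambient subtraction) was a GABA-A subunit gene that was lower. Grik3, a kainate subunit, was the gene higher than in the pool, at 110.4 and 149.7 against 4.74 and 16.0 CPM (log2 fold change 3.55, SE 0.51, adjusted p = 3.2e-05), and was kept throughout. Among those lower than in the pool were Gabra2 (−1.60), Gabrb1 (−1.98), Gria2 (−1.22), Grin2b (−1.10), Grin2d (−2.88), Grik1 (−2.25) and Grid1 (−0.92), and each lost its call with the microglial filter or ambient subtraction.

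Adhesion genes had the largest share of calls among the lists of wiring genes. Of all genes tested, 3.95% were higher and 3.88% lower against Sst, and 5.62% and 6.34% against the pool. Whether the list differed from all genes was not tested. All 35 genes of synaptic adhesion were tested, with 6 higher and 13 lower against Sst (median −0.26), and 3 higher and 17 lower against the pool (median −0.72). Dscam, which governs self-avoidance of neurites, was at 36.3 and 44.9 CPM, against 518 and 384 CPM in Sst (log2 fold change −3.43, SE 0.27, adjusted p = 1.4e-08) and 677 and 609 CPM in the pool (log2 fold change −3.85, SE 0.27, adjusted p = 3.3e-09), and was kept throughout in both. Among cadherins, Cdh20 was higher than in Sst, at 508 and 399 against 69.1 and 80.0 CPM (2.55, kept throughout), while Cdh13 was lower, at 109 and 136 against 1148 and 999 CPM (−3.12), as was Cdh9, at 36.3 and 20.1 against 290.2 and 267 CPM (−3.44), both lost with ambient subtraction. Cdh4 (−2.34), Cdh8 (−1.96), Cdh11 (−1.48) and Cdh7 (−1.40) were lower as well, each lost in at least 1 alternative. Cntn5, a contactin, was at 511 and 372 CPM, above the 84.2 and 98.8 CPM of Sst (2.22, kept throughout) and below the 1667 and 1064 CPM of the pool (−1.55, lost with the microglial filter and ambient subtraction). Cntnap4, a neurexin relative of GABA synapses, was the highest of the 9 groups in each library, at 446 and 474 CPM against 132 and 138 CPM in Sst (1.75, lost with the filter and ambient subtraction) and 118 and 104 CPM in the pool (2.14, kept throughout). Nrxn3, a presynaptic neurexin with most UMIs of the list, was at 17991 and 17074 CPM and did not pass against Sst (−0.45, adjusted p = 0.2). Genes lower than in Sst also included Cntnap5b (−1.19), Cntn4 (−1.01), Nrxn2 (−0.72), Dscaml1 (−0.84) and Sdk2 (−1.85), and the other higher ones Lrrtm3 (0.88), Tenm1 (1.05) and Sdk1 (0.94). All of these were lost with the microglial filter and all but Sdk2 with ambient subtraction, and Nrxn2 (adjusted p = 0.049) was lost in 6 of 10 alternatives. Against the pool, Cntn3 (0.80) and Tenm4 (0.79) were also higher, and Cdh4 (−1.52), Cdh6 (−4.11), Cdh8 (−1.87), Cdh10 (−2.75), Cdh11 (−2.20), Cdh12 (−1.97), Cdh20 (−0.90), Cntnap5a (−1.38), Cntnap5b (−1.41), Cntn4 (−0.74), Nrxn2 (−0.92), Lrrtm4 (−2.0), Sdk1 (−2.16) and Sdk2 (−3.17) were lower, and of all these Cdh6 alone was kept throughout.

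Of 34 axon guidance genes, 33 were tested, with 7 higher and 4 lower against Sst (median −0.19), and 6 higher and 10 lower against the pool (median −0.40). Beside Slit2, Slit3 was higher than in both groups, at 155 and 168 CPM against 51.5 and 86.2 CPM in Sst (1.17) and 28.4 and 79.8 CPM in the pool (1.52, lost with the microglial filter and ambient subtraction). Plxna4, a semaphorin receptor, was at 1089.6 and 1088 against 574 and 495 CPM in Sst (1.01). Epha7 (82.0 and 74.3 against 36.4 and 22.3 CPM, 1.44), Efna5 (879.9 and 690.2 against 508 and 369 CPM, 0.82), Sema6a (0.82) and Unc5d (0.76) were higher too. The 4 lower were Sema6d (350.1 and 369.6 against 1010 and 1026 CPM, −1.52), Dcc, the netrin receptor (125 and 52.1 against 177 and 199.6 CPM, −1.22), Epha6 (−1.04) and Unc5c (−0.96). Slit2 was the only gene of these 11 that kept its call against Sst throughout, with the microglial filter ending all but that of Unc5c and ambient subtraction ending that of Unc5c. Thinning also ended those of Slit3, Sema6a, Unc5d, Epha7 and Efna5. The other genes higher than in the pool were Sema6a (1.11), Plxna2 (0.67), Plxnc1 (1.41) and Ntng2 (2.29), and the lower ones Robo2 (−1.27), Sema3c (−1.97), Sema3e (−1.54), Sema5a (−2.20), Sema6d (−1.28), Nrp2 (−1.99), Dcc (−2.02), Unc5b (−5.57), Unc5c (−1.50) and Epha3 (−2.18), each lost in at least 1 alternative.

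**Figure D5:**
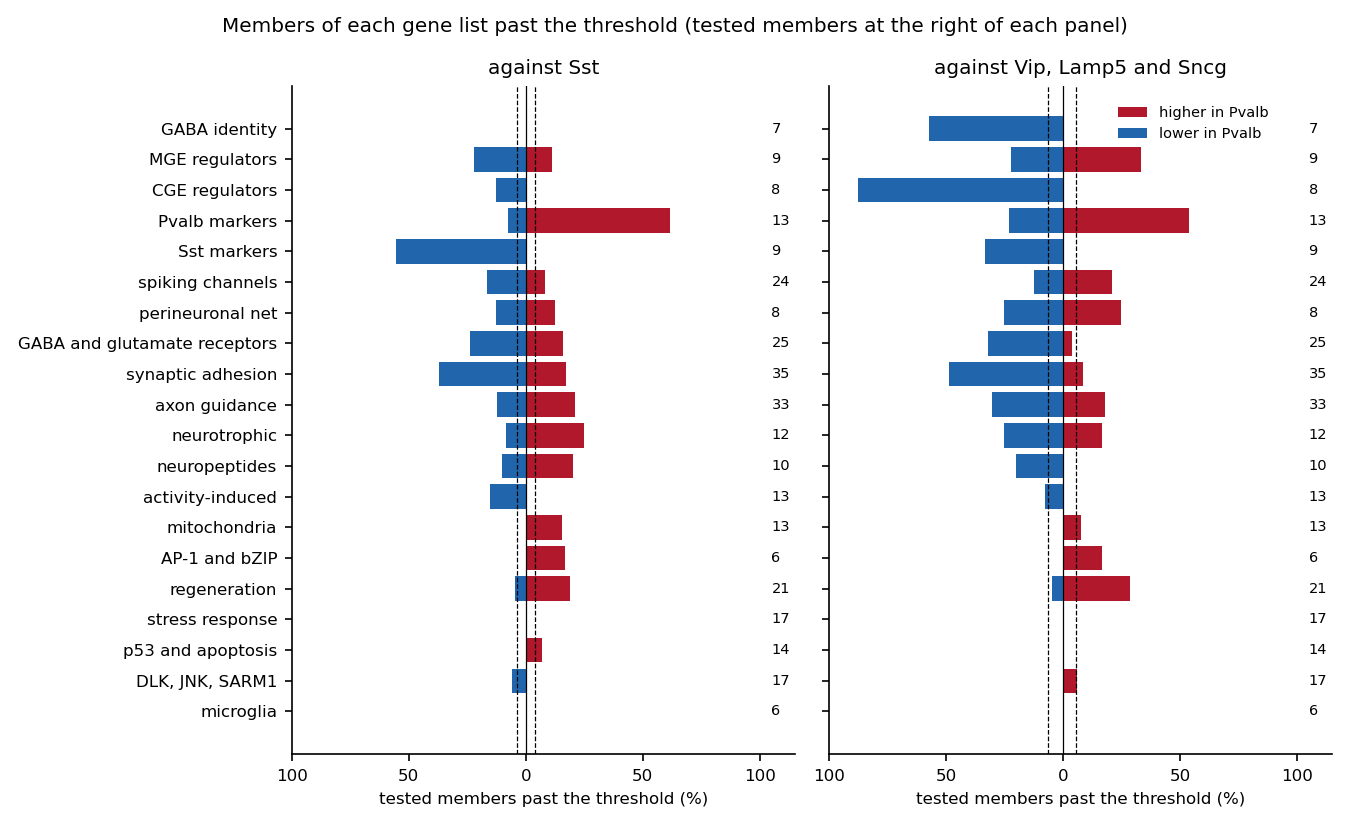
Percent of the tested members of 20 gene lists that passed, higher (red) or lower (blue) in Pvalb, against Sst and against the pool, with the number tested at the right and dashed lines at the percent of all genes tested. Most of the tested Pvalb markers are higher, most tested Sst markers are lower against Sst, and most tested genes of the caudal ganglionic eminence are lower against the pool.

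Lists of activity and metabolism each had 2 calls against Sst, where 3.95% of all genes tested were higher and 3.88% lower. Against the pool, where these shares were 5.62% and 6.34%, each had 1 call. Whether the lists differed from all genes was not tested. Of 20 activity-induced genes, 13 were tested, with 0 higher and 2 lower against Sst (median −0.26, or −0.16 at bound), and 0 higher and 1 lower against the pool (median 0.12). The 2 were Bdnf and Nptx2, a pentraxin that gathers AMPA receptors, at 6.31 and 4.13 against 21.4 and 18.1 CPM (−2.01, lost with ambient subtraction), and the gene lower than in the pool was Pcsk1 (−1.67, lost with the microglial filter and ambient subtraction). Homer1, a scaffold of excitatory synapses, had most UMIs of the list, at 164 and 275 CPM. Of 18 genes of mitochondria and their regulators, 13 were tested, with 2 higher and 0 lower against Sst (median 0.42), and 1 higher and 0 lower against the pool (median 0.36). Esrrg, an estrogen-related receptor that works with PGC-1 on oxidative genes, was at 269.6 and 289 CPM, above the 74.1 and 93.9 CPM of Sst (log2 fold change 1.69, SE 0.24, adjusted p = 3.9e-05, lost with ambient subtraction) and the 75.8 and 98.5 CPM of the pool (log2 fold change 1.72, SE 0.29, adjusted p = 0.00019, lost with the microglial filter and ambient subtraction). The other gene was Mef2c. Ppargc1a, which encodes PGC-1 alpha, was at 186 and 206 CPM and 155 and 138 CPM in Sst (0.43, adjusted p = 0.39), and passed against excitatory subclasses (1.86).

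Transcripts of other cell types were present in Pvalb nuclei. The 14 microglia genes summed to 446 and 681 CPM, against 481 and 809 CPM in Sst, 450 and 1022 CPM in the pool and 7288 and 6835 CPM in microglia. Tmem119, a marker of resident microglia, had 0 UMIs in Pvalb nuclei. At least 2 such UMIs were found in 58.0% of male and 96.0% of female Pvalb nuclei, and in 59.8% and 90.2% of Sst nuclei. Of the list, 6 genes were tested, and 0 passed in edgeR against Sst (median −0.18, 0 with an unadjusted p under 0.05, 0 of 9 by DESeq2) or against the pool (median −0.21, 1 with an unadjusted p under 0.05, 0 of 12 by DESeq2). The 10 astrocyte genes summed to 101 and 84.7 CPM, with Slc4a4, a bicarbonate transporter that neurons also express, most abundant (53.6 and 47.0 CPM against 8.79 and 5.56 in Sst, 2.83, lost with thinning) and Fgfr3 at 0. Of 4 tested, 1 was higher and 0 lower against Sst (median −0.41), and 0 higher and 2 lower against the pool (median −0.91), namely Slc1a2 (lost with thinning, the microglial filter and ambient subtraction) and Slc1a3 (kept in the 7 alternatives that tested it). The 11 oligodendrocyte genes summed to 45.7 and 43.4 CPM, with Mbp most abundant (25.2 and 16.0 CPM against 65.3 and 45.2 in Sst, −1.51, lost with thinning and ambient subtraction) and Olig1 and Olig2 at 0. Of 2 tested, 0 were higher and 1 lower against Sst (median −0.91), and 0 of either in edgeR against the pool (median −0.47, 1 with an unadjusted p under 0.05, 0 of 3 by DESeq2). The 11 excitatory genes summed to 238 and 210 CPM, with Camk2a most abundant (178 and 164 CPM) and Neurod1, Fezf2, Emx1 and Emx2 at 0. Of 6 tested, 0 passed in edgeR against Sst (median −0.17, or −0.09 at bound, 0 with an unadjusted p under 0.05, 0 of 8 by DESeq2), and 0 were higher and 1, Camk2a (lost with the microglial filter), lower against the pool (median 0.19, or 0 at bound). The 8 vascular genes summed to 7.88 and 5.16 CPM, with Pecam1 most abundant (4.73 and 2.06 CPM) and Flt1 and Rgs5 at 0. The 1 tested, Flt1, was not called in edgeR against Sst (log2 fold change −4.87, or −1.25 at bound, 1 with an unadjusted p under 0.05, 0 of 2 by DESeq2), and was at least 20.3-fold lower than in the pool. The part of RNA from outside the nucleus in the results was not tested beyond the alternatives given.

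Among single genes with a mean of at least 20 CPM in the higher group, some differed from Sst by far more than the rest. Beside Acan, Syt2 and Erbb4, the 10 highest were the adhesion-site scaffold gene Phldb2 (186 and 200.3 against 6.28 and 8.35 CPM, 4.63), Palld, which encodes the actin bundler palladin (251 and 348 against 10.0 and 13.9 CPM, 4.58), Trim45 (80.4 and 54.7 against 2.51 and 2.78 CPM, 4.52), Zbtb7c (45.7 and 57.8 against 1.26 and 3.48 CPM, 4.24), Ndst3, a heparan sulphate sulphotransferase (826 and 585 against 50.2 and 31.3 CPM, 4.12), the tetraspanin gene Tspan9 (319 and 325 against 15.1 and 23.6 CPM, 3.96) and Wisp1, a matricellular gene. Wisp1 had 36.3 and 50.1 CPM against 1.26 and 1.39 CPM, a ratio of 34.8 (95% interval 11.6 to 171), and was lost with the microglial filter. The other 6 were kept throughout. The 10 lowest beside Reln and Pdyn were Unc13c, a presynaptic priming factor (6.31 and 8.78 against 789 and 583 CPM, −6.37), the AMPA receptor auxiliary gene Shisa6 (4.73 and 3.097 against 235 and 201 CPM, −5.89), Synpr, a synaptic vesicle gene (7.88 and 24.3 against 1036 and 784 CPM, −5.56), Rgs6, a brake on G proteins (31.5 and 34.6 against 1554 and 1436 CPM, −5.48), the calcium channel subunit gene Cacna2d3 (37.8 and 55.7 against 1439.6 and 1221 CPM, −4.77), Pde1a, a phosphodiesterase (41.0 and 21.7 against 768 and 736 CPM, −4.71), Lama4 and Timp3. For Lama4 the ratio of Sst to Pvalb was 41.4 (95% interval 11.1 to 349) and for Timp3 62.2 (95% interval 16.8 to 519.8), with 1 to 3 UMIs in Pvalb nuclei. All of these had both Pvalb sums below both Sst sums, and Timp3 and Pdyn alone lost their call, both with ambient subtraction and Timp3 also with the filter.

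The 5 highest against the pool had 0 UMIs there, so their fold is a bound set by 3 counts over the pool. They were Nrap, an actin-binding gene of muscle (86.7 and 93.9 CPM, at least 17.7-fold), Gm16178, an antisense transcript (69.4 and 75.9 CPM, at least 14.2-fold), the interferon-induced gene Ifit1 (41.0 and 54.2 CPM, at least 9.31-fold), Gm38399, a noncoding entry that overlaps Nav1 on the same strand (29.96 and 49.6 CPM, at least 7.78-fold), and Fer1l6 (22.1 and 28.9 CPM, at least 4.99-fold). Gm16178 was kept throughout, and the other 4 were lost with ambient subtraction. The strand use of the counting is not given in the sources used here, so counts of Gm16178 and Gm38399 may include reads of the genes they overlap. The 4 lowest beside Adarb2 had 0 UMIs in Pvalb nuclei, and their folds are bounds against 3 counts over the Pvalb sums. Trpc7, a cation channel (56.8 and 31.9 CPM in the pool), was at least 38.0-fold lower, Gng4, a G protein subunit (18.9 and 47.9 CPM), at least 28.6-fold, the caudal regulator Nr2f2 (42.6 and 21.3 CPM) at least 27.4-fold, and Flt1 (4.74 and 42.6 CPM) as given. Trpc7 and Gng4 were kept throughout, and Nr2f2 and Flt1 were lost with ambient subtraction.

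Against the excitatory subclasses, the 5 highest were Acan, Lhx6, Lrrc38, an auxiliary subunit of BK channels (69.4 and 69.7 against 5.11 and 0.731 CPM, 6.57), the kinase gene Cdk15 (315 and 281 against 24.4 and 8.18 CPM, 6.15) and Vwc2, a BMP antagonist (104 and 80.5 against 1.31 and 2.39 CPM, 6.05). The log2 fold changes in this paragraph are fitted ones and not ratios of the CPM means. The 5 lowest were Emx1, a homeobox gene of pallial progenitors (0 UMIs in Pvalb, at least 20.1-fold lower), the noncoding Gm32200 (0 UMIs, at least 23.2-fold lower) and Gm44643 (ratio 72.7 (95% interval 13.0 to 2878)), the matrix protease gene Mmp17 (ratio 46.4 (95% interval 12.8 to 384)) and Kcnip3, a calcium-binding channel subunit (0 and 3.097 against 151 and 99.9 CPM, −5.35). Of these 10, Emx1 alone lost its call, with the leading cluster of each subclass alone.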

How the data were processed

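Per the file headers, the authors deposited counts (UMIs) called by Cell Ranger 7.0.1 (male) and 7.0.0 (female), while headers of the raw matrices name 4 and their labels 3.1.0. The deposited table gave the percent of mitochondrial UMIs, clusters and mapped labels that the authors made. The corrected counts were not used here, nor were 3 table columns. The 18 sums of 9 groups were fitted in edgeR 4.0.16 (R 4.3.3) (quasi-likelihood F test, adjusted by Benjamini-Hochberg), and in DESeq2 1.42.0. Correlations of replicate differences over 36 pairs of groups ran from 0.0440 to 0.496 (median 0.181), and the fit without a library term was kept. Nuclei were thinned to 2300 UMIs for shares. Members and the 25 lists were chosen with earlier results of these data known. Named genes are 9 fixed ones, the 10 (Sst) or 5 (other comparisons) largest changes in each direction with at least 20 CPM, and list members that passed or were most abundant. Jun, Fos, Ppargc1a, Tac1, Cox6a2, Xist and genes at 0 were added after values were seen. Some genes that the rule takes are not reported here.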

Additional observations from a re-analysis of the deposited data

Results flagged for a closer look

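Gad1 in nuclei labelled Pvalb differed in sign between the libraries when set against the pool of Vip, Lamp5 and Sncg, with a log2 ratio of 0.29 (male) and −0.46 (female), and the difference was not tested. Vip against the excitatory subclasses had 2.15 (male) and −0.71 (female), from few UMIs, and the difference was not tested. Ecel1 against Sst had −0.0647 (male) and 0.0158 (female), both near 0, and the difference was not tested. The matrices also hold a reporter sequence that the comparisons leave out. Of its UMIs, 18 fell in 15 female and 2 in 2 male nuclei labelled Pvalb, of 185 and 53 in all called barcodes. The male matrix holds a plasmid feature that the female one lacks, so the libraries may not share a reference, and the difference was not tested.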

How the results depend on the processing

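The counts of genes that passed against Sst, the pool and the excitatory subclasses (680, 1038 and 2085) were 406, 558 and 1060 with nuclei thinned to 2300 UMIs, where 4869 genes were tested. They were 82, 80 and 205 with the microglial filter, where 17 sums and 3609 genes were left, and 195, 374 and 940 with ambient subtraction, where the cause was not tested. The other alternatives gave 621 to 1016, 949 to 1416 and 1765 to 2702. Of the 228 named calls, 226 kept their side of the threshold with DESeq2 size factors and 228 with a library block. Signs turned for Ecel1 against Sst, which lay near 0, with 0.00232 (size factors), 0.00347 (no filter on low counts), 0.15 (thinned) and 0.00437 (leading cluster). Cacna2d1 against Sst had a value of 0 with ambient subtraction. With the microglial filter signs turned for Kcna6 against Sst (0.41) and, against the pool, for Ecel1 (−0.16), Zeb2 (0.25), Sema6a (−0.10) and Sema6d (1.01), and the cause was not tested. With 1 library left no test is possible, and the log2 fold change moved for 32 calls without the male and for 61 without the female library. Depth limits genes of few UMIs, since thinning lowered the share of Pvalb nuclei with Atf3 from 72.8% to 47.5%, with Gad1 from 56.8% to 25.8% and with Gad2 from 64.4% to 37.4%.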

Other observations

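The nuclei labelled Pvalb were also compared between the libraries, as values, since each sex had 1 library and sex and depth cannot be told apart. Of 6055 genes with at least 20 CPM in a library, 271 were over 2-fold higher in the male and 84 in the female Pvalb sum. Xist had 1.58 and 1406 CPM, the RNA sensor gene Ifih1 3.15 and 33.6 CPM, and the Y-linked genes Eif2s3y 55.2 and 0 CPM and Ddx3y 33.1 and 0 CPM. Of these genes, 61.1% were higher in the male Pvalb sum (median log2 ratio 0.12).

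Nuclei labelled L6 IT, an excitatory subclass, came second to Pvalb by the mean of the libraries for several genes that marked Pvalb nuclei. Acan was at 55.2 and 12.2 CPM in them, Klf7 at 276 and 151 CPM, Lifr at 251 and 161 CPM, Palld at 216 and 77.9 CPM and Phldb2 at 75.3 and 29.2 CPM. They also had Gad1 at 65.3 and 14.6 CPM and Erbb4 at 231 and 102 CPM. Of 272 nuclei that the earlier mapping called Pvalb, 5 are now labelled L6 IT.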
